A study of Mus musculus with 6 samples.

Results

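Type IV collagen is encoded by 6 genes in the mouse, Col4a1, Col4a2, Col4a3, Col4a4, Col4a5 and Col4a6, and these were taken by symbol from the 43432 genes counted in each library. All 6 were present in the count files, and 5 passed the filter on low counts, Col4a3 being the exception. RNA of samples labelled skeletal muscle was sequenced in 3 libraries labelled FID and 3 labelled Control, all of which also carry the tag D3. The series asks whether fibro-adipogenic progenitors (FAPs), mesenchymal cells that reside between muscle fibres, need IGF-I of their own, and uses a mouse that loses Igf1 in them. Per the labels, tamoxifen at 100 ug/g was given by intraperitoneal injection for 5 days to mice 12 to 13 weeks old, with 1 week or more left before experiments, and males and females were both used in the study. The same protocol text stands for both groups, so tamoxifen is shared by them as far as the labels say. The sources used here do not give the alleles, the strain, the promoter that drives the deletion or the meaning of FID and D3. Nor do they give the number of animals behind a library, so p-values reflect the spread among 6 libraries, which could be partly technical.

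Type IV collagen is the network-forming collagen of basement membranes, the thin matrix sheets that lie under endothelium and epithelium and around muscle fibres, smooth muscle and nerve. Chains of the family assemble inside the cell into triple-helical trimers, which are secreted and joined end to end into a mesh that carries laminin, nidogen and perlecan. The products of Col4a1 and Col4a2 form the trimer of nearly every basement membrane. The chains from Col4a3, Col4a4 and Col4a5 form the trimer of the kidney glomerulus, and those from Col4a5 and Col4a6 form a trimer of smooth muscle and some epithelia. The 6 genes lie in 3 head-to-head pairs, each pair transcribed outward from neighbouring start sites.

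Gene counts summed to 8750157, 9676812 and 9094185 in FID 1, 2 and 3 and to 5201853, 9994541 and 10093757 in Control 1, 2 and 3. Levels are given as CPM (read counts scaled to library size, with TMM normalisation), and a gene with no read could still be present at 0.293 to 0.593 CPM (3 reads, counting error only). Igf1, the targeted gene, stood at 109, 107 and 81.6 CPM in FID 1, 2 and 3 and at 134, 60.4 and 106 CPM in Control 1, 2 and 3 (log2 fold change -0.010, edgeR adjusted p 0.990). Its whole-gene count thus does not check the labels. The 12 markers of mature muscle fibres summed to 26.3 to 42.0 CPM in FID and to 13.8 to 89.0 CPM in Control, low levels for samples labelled skeletal muscle. Among them Ckm (muscle creatine kinase) and Mb (myoglobin) stayed at or below 1.19 and 1.56 CPM, while Acta1 (skeletal muscle actin) reached 30.9 CPM in Control 1, the library with the highest sum. Reads of the Y-linked gene Ddx3y were present in FID 3, Control 2 and Control 3 and at 0 in FID 1, FID 2 and Control 1, and Control 3 also held Xist, the X-inactivation transcript, at 13.7 CPM.

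Col4a1 (ENSMUSG00000031502, GRCm38 chromosome 8, 11198423 to 11312826, minus strand) and Col4a2 (ENSMUSG00000031503, chromosome 8, 11312805 to 11449287, plus strand) overlap by 22 bases at their first exons. Col4a4 (ENSMUSG00000067158, chromosome 1, 82448423 to 82586849, minus strand) and Col4a3 (ENSMUSG00000079465, chromosome 1, 82586921 to 82722059, plus strand) start 72 bases apart. Col4a6 (ENSMUSG00000031273, chromosome X, 141165403 to 141474076, minus strand) and Col4a5 (ENSMUSG00000031274, chromosome X, 141475385 to 141689234, plus strand) start 1309 bases apart. These positions are from GENCODE. By RefSeq bounds Col4a4 starts at 82587034 and Col4a3 at 82586921, so these genes overlap there and their gap depends on the annotation. RefSeq also places the Col4a1 start at 11312889, which lengthens its overlap with Col4a2, and the starts of the chromosome X pair 1275 bases apart. All 6 are annotated as protein coding. The counts cover all exons of a gene, so alternative first exons and isoforms are not separated.

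The RefSeq promoter windows (GRCm38.p6, 250 bases before to 50 after a start site) are shown for the chromosome 8 and X pairs because the levels of the first pair moved together across libraries and those of the second did not. Of the 6 genes, 5 had a window. For the chromosome 8 pair, read from opposite strands (chr8:11312777-11313076, minus strand, for Col4a1, and chr8:11312555-11312854, plus strand, for Col4a2), capitals mark the 78 bases that both windows hold.
Col4a1: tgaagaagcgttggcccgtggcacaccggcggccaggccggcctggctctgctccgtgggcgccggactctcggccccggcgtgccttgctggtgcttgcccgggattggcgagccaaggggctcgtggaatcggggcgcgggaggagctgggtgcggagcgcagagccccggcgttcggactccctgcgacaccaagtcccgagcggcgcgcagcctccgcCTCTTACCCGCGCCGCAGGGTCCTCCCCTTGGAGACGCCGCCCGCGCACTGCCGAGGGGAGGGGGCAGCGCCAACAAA
Col4a2: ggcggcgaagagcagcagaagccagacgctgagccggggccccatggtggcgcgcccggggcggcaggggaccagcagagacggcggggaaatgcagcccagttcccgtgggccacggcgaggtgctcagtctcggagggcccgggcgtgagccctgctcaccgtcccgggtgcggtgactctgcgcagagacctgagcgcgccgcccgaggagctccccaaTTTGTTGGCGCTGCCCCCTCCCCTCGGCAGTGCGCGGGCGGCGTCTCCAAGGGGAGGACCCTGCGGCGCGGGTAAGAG

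For the chromosome X pair (chrX:141475169-141475468, plus strand, for Col4a5, and chrX:141474027-141474326, minus strand, for Col4a6) the windows share no base, and capitals mark matches to the motifs searched.
Col4a5: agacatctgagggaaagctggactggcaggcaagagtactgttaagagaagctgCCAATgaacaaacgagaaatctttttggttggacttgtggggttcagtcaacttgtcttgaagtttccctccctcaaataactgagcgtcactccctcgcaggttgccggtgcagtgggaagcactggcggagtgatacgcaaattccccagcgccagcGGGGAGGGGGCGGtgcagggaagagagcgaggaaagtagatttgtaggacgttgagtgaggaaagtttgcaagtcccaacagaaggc
Col4a6: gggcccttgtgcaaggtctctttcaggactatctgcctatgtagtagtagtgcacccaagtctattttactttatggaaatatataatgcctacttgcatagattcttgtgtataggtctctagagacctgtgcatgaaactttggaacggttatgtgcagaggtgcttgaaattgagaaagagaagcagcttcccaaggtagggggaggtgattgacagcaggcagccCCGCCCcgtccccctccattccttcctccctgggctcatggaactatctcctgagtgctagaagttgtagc

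The windows of Col4a1 and Col4a2 were rich in G and C, at 74% and 73.7%, against 52.7% for Col4a5 and 48.3% for Col4a6. They held 37 and 33 CpG dinucleotides, against 11 and 3. Motifs were searched on both strands: CCAAT is found in 37.4% of all 32851 promoter windows, GGGCGG in 35.7%, TATAAA in 13.6% and CCCTCCCC in 10.8%. Within the shared bases of Col4a1 and Col4a2 stood 1 match to CCCTCCCC (chr8:11312792-11312799) and 1 to GGGCGG (chr8:11312812-11312817), each read on the plus strand and therefore counted in both windows. Matches not wholly within the shared bases are not marked as matches. These were CCAAT in the windows of Col4a1 (chr8:11312967-11312971) and Col4a2 (chr8:11312773-11312777). The last base of this Col4a2 match, at 11312777, is where the shared bases begin and so is a capital. The Col4a2 window also held GGGCGG at chr8:11312613-11312618 and, on the other strand, at chr8:11312757-11312762. In the Col4a5 window, the shorter run of capitals is a match to CCAAT and the longer run holds overlapping matches to GGGCGG and, on the other strand, to CCCTCCCC. The capitals of Col4a6 are a match to GGGCGG on the other strand. TATAAA matched in no window shown. A match describes letters and is not a binding site.

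Col4a1 and Col4a2 made up nearly all type IV collagen reads, at 58.5% and 40.1% of the reads of the family over the 6 libraries. Levels per kilobase of annotated exon ran in the order Col4a1, Col4a2, Col4a5, Col4a6, Col4a4 and Col4a3, with means over all libraries of 206, 159, 3.92, 0.479, 0.161 and 0.0685 CPM per kb. Col4a1 lay above Col4a2 per kilobase in 6 of 6 libraries, by 1.18 to 1.35 times, and Col4a5 lay below Col4a2 in 6 of 6. Col4a4 lay above Col4a3 in 6 of 6 libraries, but on as few as 5 and 4 reads in FID 1, so the order of this lowest pair is uncertain within counting error there. Together Col4a1 and Col4a2 held 97.8% to 98.8% of the per-kilobase level of the family in libraries labelled FID and 98.0% to 99.5% in libraries labelled Control.

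**Figure D1:**
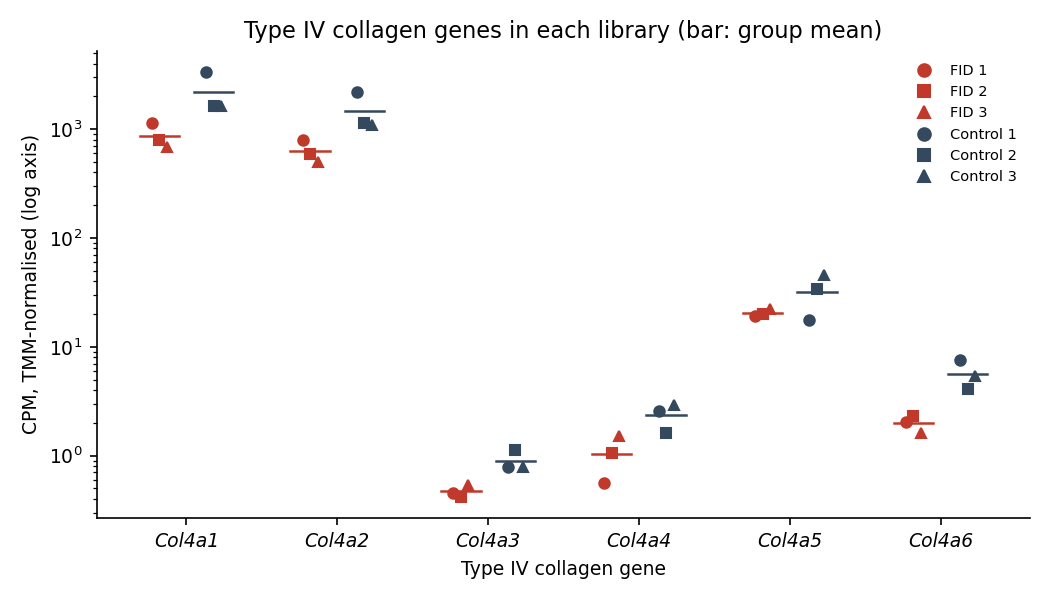
TMM-normalised CPM (log axis) of the 6 type IV collagen genes, with 1 point per library and a bar at the group mean, FID left of Control. FID libraries lie below all Control libraries for every gene but Col4a5, where Control 1, at 17.6 CPM, lies under the FID libraries.

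Transcripts of the major chains were less abundant in the libraries labelled FID. Col4a1 stood at 1145, 788 and 683 CPM in FID 1, 2 and 3 and at 3347, 1642 and 1635 CPM in Control 1, 2 and 3. All FID libraries lay below all Control libraries, and Control 1 stood far above the others. The means were 872 ± 242 CPM in FID and 2208 ± 986 CPM in Control (SD, n = 3 each), a level 2.53 times lower in FID (log2 fold change -1.34, SE 0.33, edgeR adjusted p 0.139). Col4a1 thus missed edgeR's adjusted threshold of 0.05. Col4a2, whose product joins each trimer with the Col4a1 chain, stood at 786, 594 and 503 CPM in FID 1, 2 and 3 and at 2196, 1133 and 1084 CPM in Control 1, 2 and 3. Its libraries kept the same order as those of Col4a1, with means of 628 ± 145 CPM in FID and 1471 ± 628 CPM in Control (log2 fold change -1.23, SE 0.31, edgeR adjusted p 0.139). In bulk RNA, fewer cells that make these chains and less RNA per cell cannot be told apart.

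Col4a6, the minor chain of smooth muscle basement membranes, was also lower, at few reads. It had 18, 22 and 15 reads in FID 1, 2 and 3 and 38, 40 and 55 reads in Control 1, 2 and 3, although Control 1 was the shallowest library. These are 2.03, 2.31 and 1.62 CPM in FID and 7.52, 4.06 and 5.37 CPM in Control, without overlap (log2 fold change -1.48, SE 0.32, edgeR adjusted p 0.136). With SEs of this size, the order of the differences of Col4a1, Col4a2, Col4a4 and Col4a6 was not resolved.

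Col4a5, the head-to-head neighbour of Col4a6, overlapped between the groups. It stood at 19.0, 20.2 and 22.4 CPM in FID 1, 2 and 3 and at 17.6, 33.8 and 45.2 CPM in Control 1, 2 and 3. FID libraries were close together, whereas Control 1 was the lowest of all 6 libraries and Control 2 and 3 the highest. Mean levels were 20.5 ± 1.69 CPM in FID and 32.2 ± 13.9 CPM in Control, with a log2 fold change of -0.66 and an SE of 0.31 (edgeR adjusted p 0.294). Without Control 3 it was -0.32 (edgeR adjusted p 0.535), and without Control 1 it was -0.95 (edgeR adjusted p 0.0823).

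Col4a5 and Col4a6 lie on the X chromosome, so their levels are also given by whether a library held Y-linked reads. Where Ddx3y was at 0, Col4a5 stood at 19.0 and 20.2 CPM in FID 1 and 2 and at 17.6 CPM in Control 1. Among the libraries with Ddx3y reads, it stood at 22.4 CPM in FID 3 and at 33.8 and 45.2 CPM in Control 2 and 3. Each part holds a group with 1 library, and Control 3 holds Xist as well, so no difference between the parts was tested. Col4a6 was lower in FID in both parts, at 2.03 and 2.31 against 7.52 CPM and at 1.62 against 4.06 and 5.37 CPM, and so was Col4a1, at 1145 and 788 against 3347 CPM and at 683 against 1642 and 1635 CPM. A fit with a term for Ddx3y reads, chosen after seeing the data, gave log2 fold changes of -0.36 for Col4a5 and -1.67 for Col4a6 (edgeR adjusted p 0.432 and 0.0533). With that term Col4a1 and Col4a2 had -1.53 and -1.41 (edgeR adjusted p 0.0518 for each).

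The pair on chromosome 1 was close to the detection limit. Col4a4, one of the chains of the glomerular trimer, had 5, 10 and 14 reads in FID 1, 2 and 3 and 13, 16 and 30 reads in Control 1, 2 and 3. These are 0.563, 1.05 and 1.51 CPM in FID and 2.57, 1.62 and 2.93 CPM in Control (log2 fold change -1.17, SE 0.45, edgeR adjusted p 0.225). Only 1 FID library reached the 1.07 CPM of the low-count filter, so Col4a4 entered the test through the Control libraries. Col4a3, its partner chain, had 4, 4 and 5 reads in FID 1, 2 and 3 and 4, 11 and 8 reads in Control 1, 2 and 3, and was not tested after filtering. In the fit with no filter it had a log2 fold change of -0.90 (edgeR adjusted p 0.564). Of its annotated exon bases, 5.65% overlap the antisense transcript C430014B12Rik, which had 0 to 7 reads. Whether the counting used strand is not stated in the labels or files, so reads of the overlapping part cannot be assigned.

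In counts, 0 of the 5 tested genes passed edgeR's adjusted threshold, as did 0 of all 12881 genes tested (0%), while 2449 genes had an unadjusted p under 0.05. An unadjusted p under 0.05 with a lower level in FID was found for Col4a1, Col4a2, Col4a4 and Col4a6, where 9.21% of all genes tested had such a p (9.81% with a higher level). The same 4 had FID libraries below all Control libraries, where 12.3% of all genes did. Col4a4 is in both counts only as a gene that passed the filter through the Control libraries, so these counts, and the median log2 fold change of -1.23 over the 5 genes against -0.019 over all tested genes, are a description. DESeq2 called 760 genes, among them Col4a1, Col4a2 and Col4a6 (DESeq2 adjusted p 0.00445, 0.00639 and 0.0147), where 2.19% of the genes with a DESeq2 adjusted p were called lower in FID and 3.62% higher. Limma-voom with sample weights called the same 3 members lower, against 5.01% of all genes. Without Control 1, the log2 fold changes of Col4a1 and Col4a2 were -0.91 and -0.82 (edgeR adjusted p 0.108 for each), so the size of the difference rested in part on that library.

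The proportions of the chromosome 8 pair varied over a narrow range. For every read of Col4a2 there were 1.46, 1.33 and 1.36 reads of Col4a1 in FID 1, 2 and 3 and 1.52, 1.45 and 1.51 in Control 1, 2 and 3. The difference of the mean log2 ratio, FID minus Control, was -0.11 (exact two-sided permutation p 0.20, Benjamini-Hochberg adjusted over 3 ratios 0.30), and FID 1 lay above Control 2. Counting error was small beside these values, with a 95% exact interval of 1.28 to 1.37 in FID 2 and of 1.49 to 1.56 in Control 1. FID 2 and FID 3 lay below every Control library, and without FID 1 the difference was -0.15. The levels of both genes differed between groups by 2.34 to 2.53 times, and their ratio, in the mean, by 0.924 times. For groups of 3 and 3 libraries, the smallest p that exact permutation can give, counting both tails, is 0.10, so this design can neither call a difference of the ratio nor show that there was none.

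The chromosome X pair varied more. Col4a5 had 9.39, 8.73 and 13.8 reads per read of Col4a6 in FID 1, 2 and 3 and 2.34, 8.32 and 8.42 in Control 1, 2 and 3. Control 1 stood apart, with a 95% exact interval of 1.58 to 3.52 that did not reach the interval of any other library (the lowest bound elsewhere was 5.60, in FID 2). The mean log2 ratio, with 0.5 added to each count, differed by 0.90 between FID and Control (exact two-sided permutation p 0.10, the smallest possible, adjusted 0.30). Without Control 1 the difference was 0.29, so that library set most of its size.

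The 2 pairs were also set against each other. Col4a1 and Col4a2 together had 91.6, 61.5 and 49.4 times the reads of Col4a5 and Col4a6 together in FID 1, 2 and 3 and 221, 73.4 and 53.8 times in Control 1, 2 and 3. The groups overlapped, and the difference of the mean log2 ratio was -0.55 (exact two-sided permutation p 0.60, adjusted 0.60). Without Control 1 it was 0.054, in the other direction. For the pair on chromosome 1 no ratio was formed, because Col4a3 had fewer than 10 reads in 5 of 6 libraries.

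**Figure D2:**
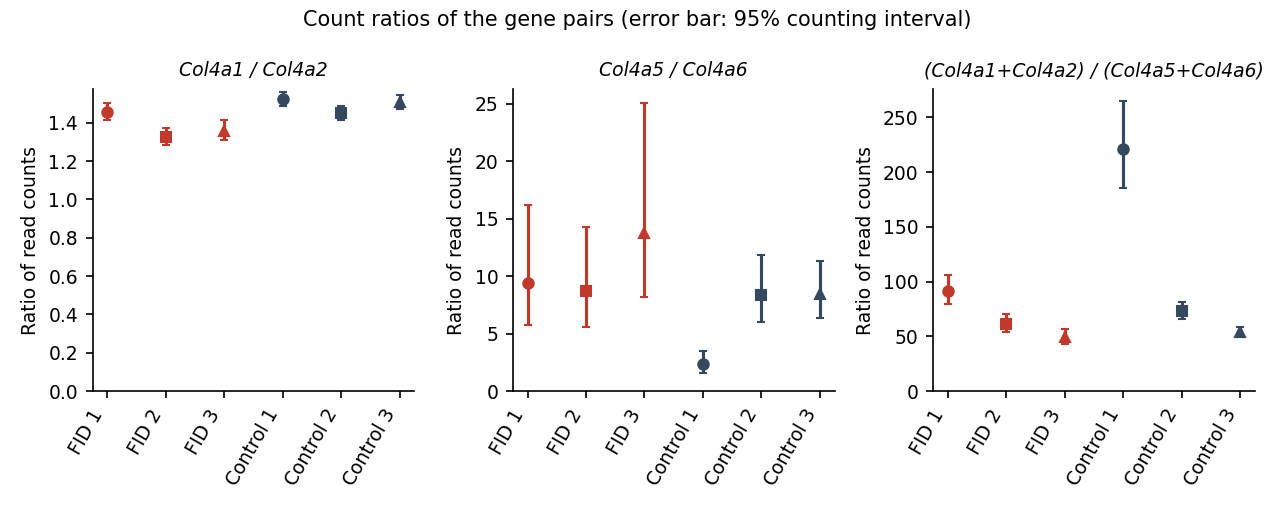
Ratios of read counts within and between the chromosome 8 and chromosome X pairs in each library, FID left of Control, with 95% exact intervals for counting error. The Col4a1 to Col4a2 ratio lies between 1.33 and 1.52 in all 6 libraries, whereas Control 1 lies apart in the other 2 panels, at 2.34 and 221.

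Across the 6 libraries the profiles of the members were compared with those of all tested genes by Pearson's r of log2(CPM + 1), as a description over libraries of both groups. Col4a2 was the gene most like Col4a1 (r 0.999), followed by Dennd4a, Smarcc2, Limch1 and Jag1, while Dennd4a ranked just above Col4a1 for Col4a2 (both r 0.999), followed by Smarcc2, Arid5b and Oaz2. Col4a6 was most like Cdh11, Filip1, Epha4, Rora and Dlc1 (r 0.984 to 0.991), and it was nearer to Col4a1 (r 0.94) than to Col4a5 (r 0.29), its neighbour on the X chromosome. The genes nearest to Col4a5 were Fads2, Kirrel, Rpl22l1, Rbm10 and Cdkal1 (r 0.989 to 0.996). Col4a4 was most like Esyt2, A930004D18Rik, Abca4, Meis3 and Thrb (r 0.981 to 0.993). With 6 points high values are common: at r 0.94, Col4a6 ranked only 453 among the 12879 genes ordered by likeness to Col4a1.

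Genes whose products work with type IV collagen or with other matrix were taken from lists by role. Of 21 tested basement membrane partners, 20 had a log2 fold change below 0, where 52.2% of all genes did, and 14 were lower at an unadjusted p under 0.05, where 9.21% of all genes were. Their median was -0.76 (-0.56 without Control 1), and 0 passed the adjusted test. Lamc3 stood at 0.113, 1.15 and 0.540 CPM in FID 1, 2 and 3 and at 1.19, 1.12 and 1.27 CPM in Control. It passed the low-count filter only through the Control libraries, so these counts are a description. Lama2, the laminin chain of muscle basement membrane, averaged 100 ± 24.1 CPM in FID and 197 ± 34.1 CPM in Control (log2 fold change -0.98, SE 0.21, edgeR adjusted p 0.136). Nid2, a nidogen that links laminin to type IV collagen, averaged 207 ± 14.6 CPM in FID and 318 ± 41.8 CPM in Control (log2 fold change -0.61, SE 0.14). Sparc, a matricellular protein that binds type IV collagen, averaged 4517 ± 659 CPM in FID and 6665 ± 552 CPM in Control (log2 fold change -0.56, SE 0.16). Agrn, the heparan sulfate proteoglycan agrin, was the 1 member above 0, at a log2 fold change of 0.33 (edgeR adjusted p 0.720). Lamc3 and Agrn were named after their values were seen.

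Of 7 matrix cross-linking enzymes listed, 6 had a log2 fold change below 0, where 52.2% of all genes did. Pxdn, the peroxidasin that forms sulfilimine bonds between type IV collagen trimers, stood at 299, 263 and 281 CPM in FID 1, 2 and 3 and at 555, 457 and 391 CPM in Control 1, 2 and 3. These groups did not overlap (log2 fold change -0.74, SE 0.16, edgeR adjusted p 0.136). Loxl2, a lysyl oxidase that cross-links the amino-terminal ends of the chains, averaged 132 ± 11.8 CPM in FID and 170 ± 27.0 CPM in Control (log2 fold change -0.36, SE 0.15, edgeR adjusted p 0.257). Of the 7 genes, these 2 were lower at an unadjusted p under 0.05 (9.21% of all genes). The median log2 fold change of -0.22 depended on single libraries, at -0.13 without FID 1 and -0.34 without Control 1.

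For the intracellular machinery of chain folding, 16 of 20 genes had a log2 fold change below 0 (52.2% of all genes). At an unadjusted p under 0.05, 3 were lower and 0 higher, a share near that of all genes (9.21% lower and 9.81% higher). The median log2 fold change of -0.19 was -0.33 without Control 1 and -0.085 without Control 3. Serpinh1, the collagen chaperone of the endoplasmic reticulum, stood at 2021, 2502 and 3077 CPM in FID 1, 2 and 3 and at 1794, 3262 and 3619 CPM in Control 1, 2 and 3, and the groups overlapped (log2 fold change -0.19, edgeR adjusted p 0.748). P3h3, of the prolyl 3-hydroxylase family, averaged 84.8 ± 27.0 CPM in FID and 147 ± 20.1 CPM in Control (log2 fold change -0.79, SE 0.23, edgeR adjusted p 0.164). Mia3, which loads collagen into transport carriers, stood at 119, 98.5 and 102 CPM in FID 1, 2 and 3 and at 120, 142 and 148 CPM in Control 1, 2 and 3 (log2 fold change -0.36, SE 0.14, edgeR adjusted p 0.226).

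Genes on the receptor list, not all of them specific to type IV collagen, had a median log2 fold change of -0.47 over 11 tested genes (-0.31 without Control 1). At an unadjusted p under 0.05, 3 were lower and 1 higher, where 9.21% of all genes were lower and 9.81% higher. Itga1, the collagen-binding integrin chain that favours type IV collagen, averaged 34.5 ± 4.65 CPM in FID and 63.7 ± 28.8 CPM in Control, without overlap (log2 fold change -0.87, SE 0.30, edgeR adjusted p 0.195). Its partner chain Itgb1 averaged 916 ± 53.2 CPM in FID and 1029 ± 44.9 CPM in Control (log2 fold change -0.17, edgeR adjusted p 0.476). The higher gene was Cd47, a widely expressed receptor of thrombospondin, at 272 ± 86.8 CPM in FID and 168 ± 16.3 CPM in Control (log2 fold change 0.69, SE 0.24, edgeR adjusted p 0.194).

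Proteases able to cut basement membrane, with their inhibitors, lay on both sides of 0. Of 16 tested, 2 were lower at an unadjusted p under 0.05 (9.21% of all genes) and 4 higher (9.81%). The median log2 fold change was -0.14, near 0 at -0.013 without FID 3 and -0.019 without Control 2, and 0.078 without Control 1. Mmp2, a gelatinase made by stromal cells, averaged 532 ± 58.0 CPM in FID and 830 ± 195 CPM in Control (log2 fold change -0.64, SE 0.19, edgeR adjusted p 0.166). Ctss, a macrophage cathepsin, averaged 1935 ± 285 CPM in FID and 710 ± 239 CPM in Control (log2 fold change 1.45, SE 0.26, edgeR adjusted p 0.128). Ctsb, a lysosomal cathepsin, averaged 6836 ± 961 CPM in FID and 4023 ± 1275 CPM in Control (log2 fold change 0.77, SE 0.25, edgeR adjusted p 0.187).

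Other collagens differed in the same direction. The 11 fibril-forming collagen genes had a median log2 fold change of -0.89 and the 9 tested genes of other network and beaded collagens a median of -0.84, each with all tested members below 0, against 52.2% of all genes tested. Col6a5, named after its value was seen, stood at 1.46, 0.105 and 0.540 CPM in FID and at 3.96, 1.52 and 1.27 CPM in Control. It passed the low-count filter only through the Control libraries. Col11a2, Col6a4 and Col6a6, also named after their values were seen, likewise needed Control libraries to pass. They lay under the filter's 1.07 CPM in FID 3, FID 1 and FID 3, at 0.540, 0.338 and 0.756 CPM. None of their Control libraries lay under it. The counts of members below 0 are therefore a description. Col1a1, a chain of type I collagen, had -0.89 (SE 0.18), Col5a1 -1.08 (SE 0.24), and Col6a3 -0.78 (SE 0.16), each at an edgeR adjusted p of 0.136. Whether the type IV genes differed from these collagens was not tested.

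**Figure D3:**
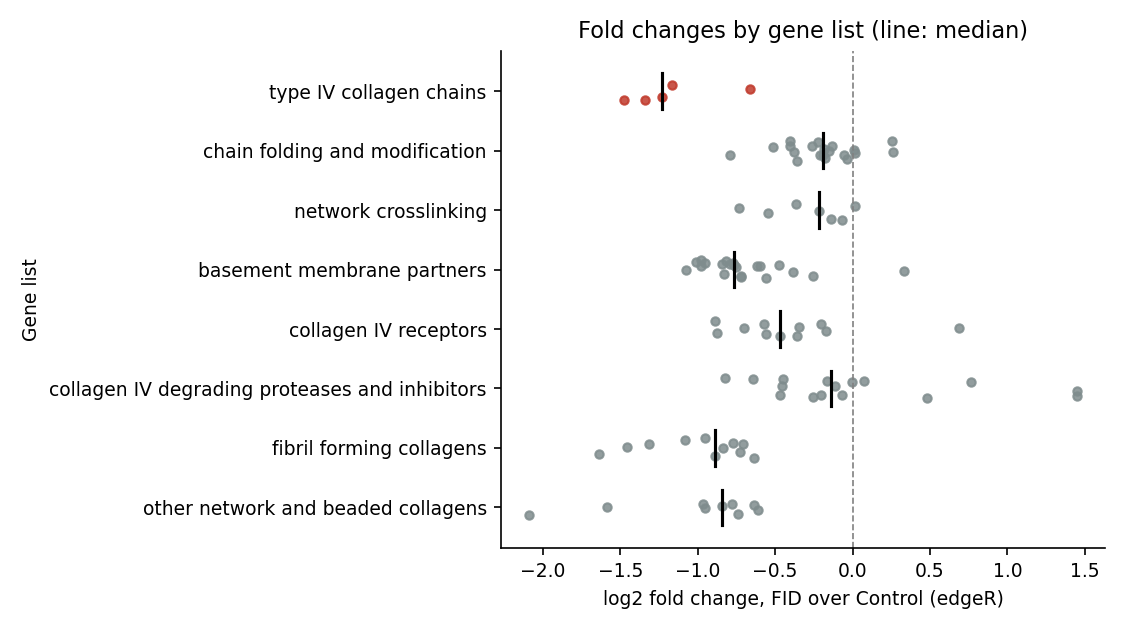
Log2 fold change (FID over Control, edgeR) of each tested gene, by list, with 1 point per gene and a line at the list's median. Type IV collagen genes lie between -1.48 and -0.66, while genes of chain folding centre at -0.19.

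Summed markers of vessel cells, like the major chains, were highest in Control 1. Not every marker followed: Pdgfrb, of the pericyte list, stood at 479, 555 and 529 CPM in Control 1, 2 and 3. Kcnj8, of the same list, stood at 9.30 CPM in Control 1 and at 14.9 CPM in FID 3. The summed level of 15 endothelial markers was 1921, 2557 and 1596 CPM in FID 1, 2 and 3 and 5771, 2496 and 1633 CPM in Control 1, 2 and 3, and none of the markers was at 0 in all libraries. Pecam1, an adhesion molecule of endothelium, stood at 380, 436 and 310 CPM in FID 1, 2 and 3 and at 954, 476 and 336 CPM in Control 1, 2 and 3. The 12 pericyte and smooth muscle markers summed to 1195 to 1416 CPM in FID and 1350 to 2787 CPM in Control, with 11 of 12 below 0 in log2 fold change. Endothelial and pericyte lists had medians of -0.67 and -0.70, and -0.058 and -0.032 without Control 1, while Col4a1 had -1.34 and, without Control 1, -0.91. The part of vessel cell content in these differences was not tested.

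The level of Col4a1 and Col4a2 relative to marker lists was computed after seeing the data. Per CPM of endothelial markers, their summed level was 1.01, 0.540 and 0.743 in FID 1, 2 and 3 and 0.960, 1.11 and 1.66 in Control 1, 2 and 3, so the groups overlapped (exact two-sided permutation p 0.20). Per CPM of pericyte and smooth muscle markers it was 1.60, 0.976 and 0.992 in FID and 1.99, 1.82 and 2.01 in Control, without overlap (exact two-sided permutation p 0.10, the smallest possible). Relative to the 14 FAP markers it was 0.394, 0.226 and 0.220 in FID and 1.03, 0.462 and 0.435 in Control, again without overlap (p 0.10 in the same exact test). The FAP list holds Ly6a, a surface marker also known as Sca-1, at 497, 2327 and 1890 CPM in FID 1, 2 and 3 and at 434, 446 and 662 CPM in Control 1, 2 and 3. Relative to the other 13 FAP markers the ratio was 0.439, 0.364 and 0.338 in FID and 1.12, 0.499 and 0.487 in Control, without overlap, and its log2 difference was -0.78, against -1.13 with Ly6a. Without Control 1 these differences were -0.38 and -0.73. The lists share no gene with the type IV family.

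Macrophage markers, 14 genes, summed to 7892 to 10609 CPM in FID and to 3728 to 6072 CPM in Control, all above 0 in log2 fold change. The 14 FAP markers summed to 4898 to 6119 CPM in FID and 5387 to 6247 CPM in Control, with 12 of 14 below 0 and a median log2 fold change of -0.47. With all 14 the groups overlapped. Ly6a, at a log2 fold change of 1.61, was left out only after its values were seen. Without Ly6a the sums were 4402, 3792 and 3509 CPM in FID 1, 2 and 3 and 4953, 5567 and 5585 CPM in Control 1, 2 and 3. These were lower in every FID library than in any Control library. The 10 mitochondrially encoded genes listed summed to 11779 to 21794 CPM in FID and 9240 to 12610 CPM in Control. The 8 epithelial markers summed to at most 11.5 CPM and the 11 Schwann cell markers to at most 142 CPM in any library. Summed satellite cell and myoblast markers reached 203 CPM in Control 1, against 49.1 to 117 CPM in the other libraries. The part of these contents in the type IV collagen differences was not tested.

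**Figure D4:**
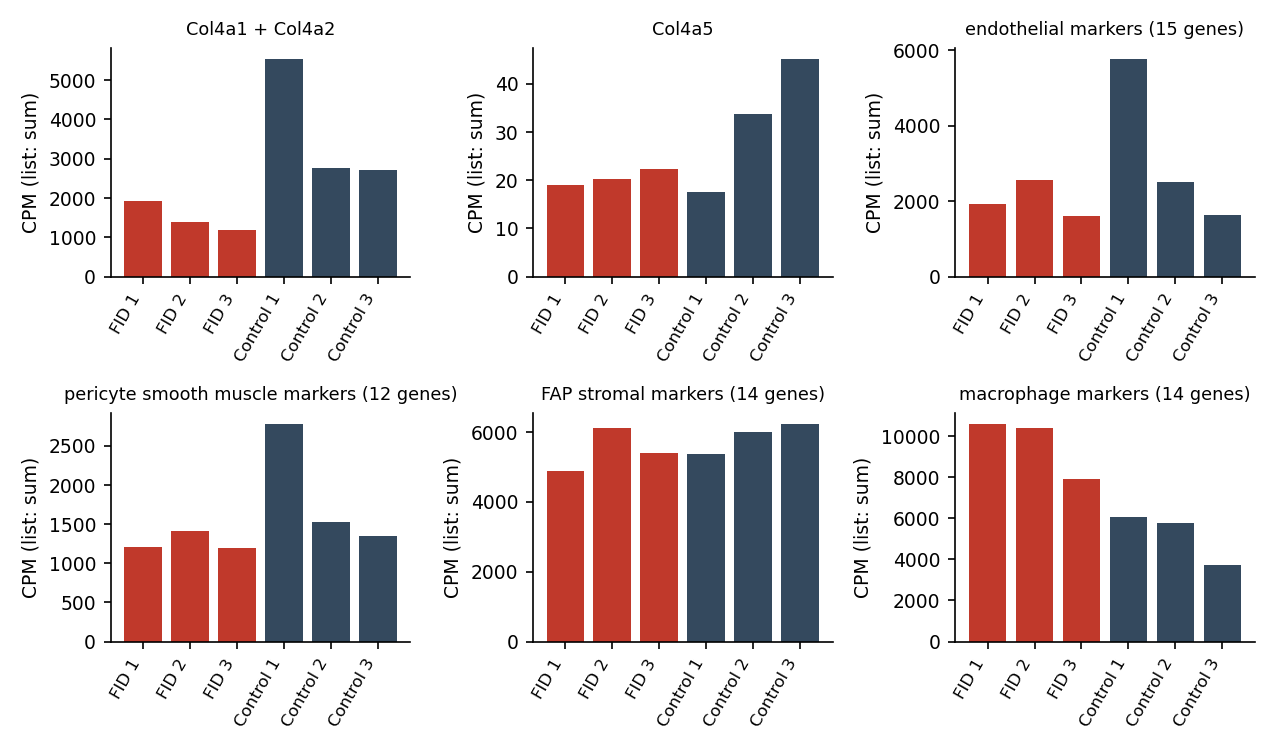
CPM of Col4a1 plus Col4a2, of Col4a5, and of 4 summed marker lists in each library, FID left of Control, on axes that start at 0. Control 1 is the highest library for Col4a1 plus Col4a2, endothelial and pericyte markers and the lowest for Col4a5.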

How the data were processed

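The deposited files hold raw read counts per gene by Ensembl identifier, 1 file per library. The submitters' processing notes name mm10 as the build and, among other tools, Bowtie2 2.5.4, STAR, HTSeq and DESeq2, with no step tied to any of them. Ambiguous reads (3.93% to 4.06% of a file) were set aside, which lowers counts where genes overlap. The labels give a directional kit and 1000 ng of input RNA with integrity above 5.6. Entries that name no gene (9.60% to 10.9% of a file) were left out. Of 43432 genes, 42462 (97.8%) had a symbol. Coordinates and exon lengths are from GENCODE M21 (GRCm38, the assembly of mm10), and promoter windows from RefSeq.

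In edgeR 4.0.16, filterByExpr at a count of 10 and a total of 15 kept 12881 genes, which were scaled with TMM and compared by the two-sided quasi-likelihood test with group as the only term and Benjamini-Hochberg adjustment over all genes. SE are the absolute log2 fold change over the square root of F. The common biological coefficient of variation was 23.1%. DESeq2 1.42.0 and limma 3.58.1 served as alternatives. The main edgeR fit, DESeq2, limma-voom with and without sample weights and the replicate block were also run on simulated data. The other alternatives were not. Libraries of a group differed beyond sampling noise (chi-square per degree of freedom 14.1 to 46.0). Pair ratios used log2 counts with 0.5 added and an exact permutation test. Members and lists were chosen with earlier results of these data known. Named genes are the members, Igf1, up to 4 list genes of smallest p plus the most abundant, the 5 nearest profiles of each member, and markers, except as stated.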

Additional observations from a re-analysis of the deposited data

How the results depend on the processing

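The log2 fold changes of Col4a1, Col4a2, Col4a4, Col4a5 and Col4a6 stayed below 0 under every alternative run. They ranged from -1.57 to -0.91 for Col4a1, -1.41 to -0.82 for Col4a2, -1.53 to -0.70 for Col4a4, -0.95 to -0.32 for Col4a5 and -1.67 to -1.22 for Col4a6. Calls depended on the test: of the type IV genes, edgeR called 0, DESeq2 3 (of 760 genes called), limma-voom 0, limma-voom with sample weights 3 (of 1531) and edgeR with no low-count filter 2 (of 269). Of the 95 partner genes tested these counts were 0, 28, 0, 33 and 6. Among all genes, DESeq2 called 2.19% lower and 3.62% higher, and the weighted fit called 5.01% lower. In numbers, the weighted fit called 645 lower and 886 higher of 12881 genes. The fit with no filter called 51 lower and 218 higher of 21380 genes. With 1 library left out, edgeR called 0 to 359 genes in all and 0 type IV genes. The calls were 359 of 13153 without FID 1 (76 lower and 283 higher) and 3 of 13134 without Control 1. Of the partner genes it called 0 to 12 (12 without FID 1, 1 without Control 1). The titles number the libraries 1 to 3 in both groups. Over all tested genes, same-numbered libraries did not consistently deviate together (r -0.013, -0.32 and 0.34), and the fit with these numbers as a replicate block called 0 genes. Col4a1 and Col4a2 did fall from library 1 to 3 in both groups. With the block their SE were 0.16 and 0.17, against 0.33 and 0.31 in the main fit (edgeR adjusted p with the block 0.153 for each). With the replicate block the ratio differences were -0.11, 0.90 and -0.55 (exact sign-flip p 0.25, the smallest possible, for each). Without Control 1 the ratio of the chromosome 8 to the chromosome X pair changed sign, at 0.054, and over the libraries left out it ranged from -0.96 to 0.054. The median of the protease list also changed sign, to 0.078 without Control 1 (-0.20 to 0.078 over the libraries left out) and to 0.073 with a term for Y-linked reads. The cause was not tested. Ratios of Col4a3 to Col4a4 were not formed at these counts. The few reads of Col4a3 and Col4a4 limit the precision of their values.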
